A study of Arabidopsis thaliana with 24 samples.

Results

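*BGLU1* and *BGLU3* to *BGLU11* are 10 beta-glucosidase genes of glycoside hydrolase family 1 (GH1) in *Arabidopsis thaliana*. The group was chosen by gene identifier, and its values in these data were known when it was chosen, in particular the rise of *BGLU1* in the suppressor lines over *tt19-8*. Levels of *BGLU1* in Col-0, *tt19-8* and the lines against either of them are therefore given as a description with no test. The other 9 genes were taken by identifier and were tested. All 10 were among the 33331 gene identifiers of the count files, and all 10 passed the filter on low counts, which left 22089 genes to test.

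The study sequenced RNA of whole seedlings in 24 libraries, 3 for each of 8 genotypes. All seedlings had been shaken for 4 days in 3% sucrose under 24 h of light, conditions that induce anthocyanins (AIC). The genotypes were the wild type Col-0, *tt19-8*, and 6 suppressor lines that carry *tt19-8* and a further mutation made with ethyl methanesulfonate. *tt19-8* is a T-DNA insertion in *TT19*, a glutathione S-transferase gene needed for anthocyanin to accumulate. In *RDR6*, nonsense mutations were mapped by the study in S1, S2 and S8, and a missense mutation in S4. S5 carries a splice-site mutation of *SGS3* and S7 a splice-site mutation of *DCL4*, and all 3 genes act in making secondary siRNAs. The study ranked S1, S2, S7 and S8 as strong and S4 and S5 as weak suppressors by their pigment. The mutagen acts across the genome, so a line may carry other mutations too. The labels do not say whether replicates were separate cultures, so p-values measure the spread between these libraries, which may be technical.

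Most GH1 enzymes of plants remove glucose from beta-glucosides. Some members of this branch work as transferases and move glucose from an acyl-glucose donor onto a flavonoid. *BGLU10* is the acyl-glucose-dependent glucosyltransferase that adds a glucose to anthocyanin in Arabidopsis, and *BGLU6* is a flavonol glucosyltransferase gene. The donors, such as sinapoylglucose, are made by enzymes of the UGT84A family. The study lists *BGLU1* with the flavonol genes.

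Libraries held 25827059 to 73443869 counts. A count of 3, taken as the floor of detection, equalled 0.0414 to 0.116 CPM (counts relative to the scaled library size), and floors cover counting error only. Replicates differed beyond counting noise in all genotypes, with a median chi-square of 3.33 to 23.3 times that of sampling alone. *TT19* itself was at 125 to 133 CPM in Col-0 and at 0.936 to 1.54 CPM in *tt19-8*. The summed CPM of 5 low-oxygen genes (*ADH1*, *PDC1*, *SUS4*, *HB1* and *LBD41*) set replicate 3 of *tt19-8* apart, at 7580 against 1615 and 1555 in replicates 1 and 2. Replicate 3 of S2 (3585 against 1636 and 1555) and replicate 3 of S8 (6019 against 2409 and 2434) stood apart in the same way, and replicate 3 of S7 in the other direction (1209 against 2616 and 2893). The sum was 5198 to 5549 in S4, 952 to 1608 in Col-0, 823 to 843 in S1 and 1093 to 1529 in S5. Replicate 3 of *tt19-8*, S2 and S8 were left out together as an alternative.

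The 10 genes lie on chromosomes 1, 3 and 4, and 6 of them form 3 pairs of direct neighbours on the same strand. *BGLU5* and *BGLU6* are separated by 141 bases on chromosome 1, *BGLU7* and *BGLU8* by 180 bases on chromosome 3, and *BGLU9* and *BGLU10* lie side by side on chromosome 4 with the short gene AT4G07905 between them (RefSeq annotation of TAIR10.1). Identity between the proteins translated from the annotated coding sequences was highest for *BGLU9* and *BGLU10*, at 90.3% over 505 aligned residues. It was 82.3% for *BGLU5* and *BGLU6* and 81.7% for *BGLU7* and *BGLU8*. The closest to *BGLU1* in the group were *BGLU3* (77.2% over 505 residues) and *BGLU5* (77.1% over 327). *BGLU11* was the most distant from the rest (54.4 to 62.1%, the highest with *BGLU5*). The annotated coding sequence of *BGLU5* has 1503 bases, but its translation was cut at an in-frame stop after 327 residues. The identities of *BGLU5* rest on those residues alone. The protein of *BGLU6* has 379 residues, and those of the other 8 have 502 to 529. Despite this likeness, none of the 100-base stretches of 9 of the genes occurred in another gene, and for *BGLU9* the share was 0.255%, all in AT4G07905, which overlaps it by 104 bases.

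The sequences before the annotated starts of the neighbouring genes are shown because they share stretches that the choice of genes did not use. The shared stretches were picked after the windows were seen, so they are a description and were not tested. *BGLU5* and *BGLU6* each hold the hexamer CACGTG, 63 and 56 bases before the start. The last 120 bases before each start (RefSeq, TAIR10.1, minus strand, chr1:22221434-22221553 and chr1:22224359-22224478) are printed 5′ to 3′ with CACGTG in capitals.
BGLU5: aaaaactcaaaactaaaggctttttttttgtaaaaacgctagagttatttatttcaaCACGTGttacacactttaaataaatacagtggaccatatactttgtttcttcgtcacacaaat
BGLU6: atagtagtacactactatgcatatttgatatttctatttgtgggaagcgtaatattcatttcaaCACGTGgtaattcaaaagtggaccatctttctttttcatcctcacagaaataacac
CACGTG, read on both strands, was in 6.49% of 27443 windows of 250 bases before protein-coding genes. The 13-base run ATTTCAACACGTG that both windows share was in 5 of those windows. CACGTG also counts as a match of CANNTG, which was in 55.3% of windows.

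*BGLU7*, *BGLU9* and *BGLU10* share a 13-base run, TATGTCGGTCACA, 75, 40 and 53 bases before their starts. It was in 4 of the 27443 windows, read on both strands. Their last 120 bases (chr3:23211167-23211286 plus strand, chr4:13860746-13860865 minus strand and chr4:13864660-13864779 minus strand) are printed with that run in capitals.
BGLU7: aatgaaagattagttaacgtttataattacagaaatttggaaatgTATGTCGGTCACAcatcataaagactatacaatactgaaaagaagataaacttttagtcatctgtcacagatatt
BGLU9: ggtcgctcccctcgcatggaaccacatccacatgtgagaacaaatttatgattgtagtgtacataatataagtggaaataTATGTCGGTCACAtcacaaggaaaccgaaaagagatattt
BGLU10: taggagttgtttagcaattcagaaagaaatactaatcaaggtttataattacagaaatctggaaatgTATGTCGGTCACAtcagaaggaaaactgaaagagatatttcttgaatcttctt
In *BGLU7* and *BGLU10*, which lie on different chromosomes, the exact shared run extends to 21 bases, and the bases just before it are also alike. As the levels given for each gene further on show, *BGLU7* and *BGLU10* differed in which genotypes were high.

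The window of *BGLU1*, the gene whose rise chose the group, is shown in full (chr1:17115512-17115761, plus strand, 250 bases) with its match of ANCNNCC in capitals, 219 bases before the start. ANCNNCC, a form of the sites that MYB factors bind, was in 48.8% of windows.
BGLU1: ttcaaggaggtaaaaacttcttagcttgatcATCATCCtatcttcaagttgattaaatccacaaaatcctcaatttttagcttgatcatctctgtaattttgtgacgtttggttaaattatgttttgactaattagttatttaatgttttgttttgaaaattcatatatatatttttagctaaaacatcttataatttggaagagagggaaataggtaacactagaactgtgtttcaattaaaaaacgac
CANNTG, the core bound by bHLH factors, CACGTG and TATAAA had no match in this window.

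To compare levels between genes, CPM were divided by exon length. On this scale *BGLU11* alone made up 62.0 to 71.4% of the summed level of the group in every genotype mean, and *BGLU10* made up 8.09 to 12.9%. The sum over the 10 genes was lowest in S1, at 282 ± 7.29 CPM per kb (SD, n = 3), and highest in S4, at 518 ± 24.0. In Col-0 it was 374 ± 32.6 and in *tt19-8* 327 ± 24.9. Without *BGLU11* the order changed, with 83.4 ± 2.55 CPM per kb in S1, 107 ± 8.02 in Col-0 and 110.2 ± 4.38 in *tt19-8*, and the highest value in S2, at 175 ± 14.5. *BGLU1* made up 0.125% of the group's summed level in *tt19-8* and 14.4% in S7.

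**Figure D1:**
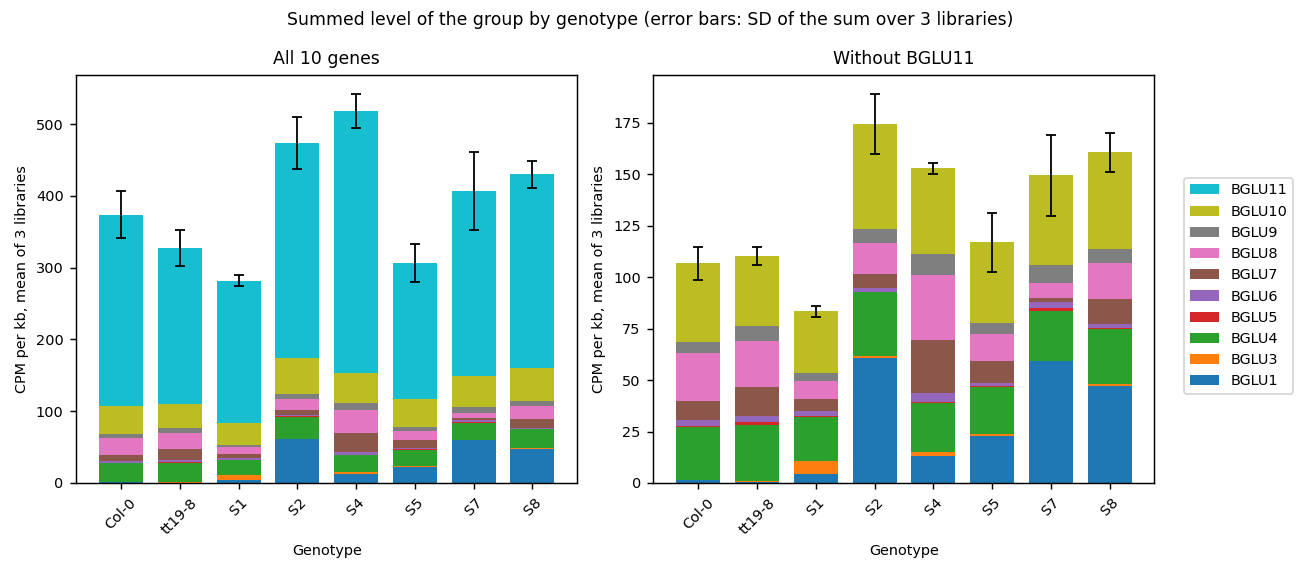
Summed level of the 10 genes (left) and of the 9 genes without *BGLU11* (right) in CPM per kb of exon, by genotype, stacked by gene, with the SD of the sum over 3 libraries as error bars. *BGLU11* filled most of each bar on the left, and on the right the *BGLU1* segment ran from 0.399 CPM per kb in *tt19-8* to 60.7 in S2.

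Among the 9 genes tested, all 9 differed among the 8 genotypes (edgeR's quasi-likelihood F test, adjusted p between 1.21e-07 and 0.000276), where 79.9% of all genes tested did. In *tt19-8* against Col-0, 2 of the 9 were called, both higher, *BGLU3* and *BGLU5*, where 13.6% of all genes were called in either direction. Against *tt19-8*, 7 of 9 were called in S1 (1 higher and 6 lower, background 34.0%) and 6 in S2 (2 higher and 4 lower, background 19.1%). In S4, 5 were called (4 higher and 1 lower, background 18.7%), and in S5 also 5 (1 higher and 4 lower, background 24.7%). S7 had 4 calls (1 higher and 3 lower, background 37.3%) and S8 had 4 (2 higher and 2 lower, background 25.6%). The lines thus differed in direction, with a median log2 fold change of the 9 genes between -0.52 in S1 and 0.51 in S4, while that of all genes lay between -0.02 and 0.00. In S7 the 4 called of 9 stood near the background of that comparison. All 6 comparisons share the *tt19-8* libraries.

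Several of these counts rested on single libraries. Without *tt19-8* replicate 2 the count for *tt19-8* against Col-0 fell from 2 to 0, and without Col-0 replicate 1 or 3 to 1. It fell in S1 from 7 to 4 without *tt19-8* replicate 2, and in S2 from 6 to 3 without *tt19-8* replicate 1 or 2. In S4 it fell from 5 to 3 without *tt19-8* replicate 1 or 2 or any of the 3 S4 libraries. It rose to 8 without replicate 3 of *tt19-8*, S2 and S8 together. The S4 libraries, with low-oxygen sums of 5198 to 5549, stayed in that fit. They were compared there with *tt19-8* replicates 1 and 2, at 1615 and 1555. In S5 the count fell from 5 to 3 without *tt19-8* replicate 2. In S8 it fell from 4 to 2 without *tt19-8* replicate 1 or 2 or any of the 3 S8 libraries. The part of the low-oxygen genes in the counts was not tested beyond leaving out replicate 3 of *tt19-8*, S2 and S8.

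Without replicate 3 of *tt19-8*, S2 and S8, 18 calls were gained and 3 were lost over all comparisons (edgeR, log2 fold change and adjusted p). In *tt19-8* against Col-0 the calls gained were *BGLU7* (0.81, adjusted p = 0.0113) and *BGLU11* (-0.41, adjusted p = 0.00826). In S4 against *tt19-8*, *BGLU5* (-1.08, adjusted p = 0.0164), *BGLU7* (0.69, adjusted p = 0.0134), *BGLU8* (0.56, adjusted p = 0.00335) and *BGLU9* (0.61, adjusted p = 0.0214) were gained and *BGLU6* was lost (0.36, adjusted p = 0.0810). The S4 libraries, none of which was left out, were thus called against the remaining *tt19-8* libraries in more of the genes. Against *tt19-8*, calls were also gained for *BGLU4* in S2 (0.26, adjusted p = 0.0363), *BGLU7* in S5 (-0.56, adjusted p = 0.0488) and *BGLU11* in S7 (0.35, adjusted p = 0.00755).

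Against Col-0, the same alternative gained *BGLU7* in S1 (-0.55, adjusted p = 0.0216) and S2 (-1.54, adjusted p = 4.99e-05), *BGLU8* in S4 (0.44, adjusted p = 0.00440) and *BGLU4* in S5 (-0.19, adjusted p = 0.0452), and lost *BGLU6* in S2 (-0.39, adjusted p = 0.0839). In S4 against S2 it gained *BGLU3* (2.17, adjusted p = 0.00314), *BGLU9* (0.75, adjusted p = 0.00476) and *BGLU11* (0.45, adjusted p = 0.00126), all of which were also gained without S2 replicate 3 alone. In S4 against S8 it gained *BGLU5* (1.01, adjusted p = 0.0464), and in S1 against S8 it gained *BGLU7* (-1.10, adjusted p = 0.000418) and lost *BGLU9* (-0.51, adjusted p = 0.0650).

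Single libraries also added calls. Without *tt19-8* replicate 3, *BGLU5* was called lower in S4 (-1.09, adjusted p = 0.0237) and *BGLU11* higher in S7 (0.35, adjusted p = 0.0241) than in *tt19-8*, and without S5 replicate 3 *BGLU9* was called lower in S5 than in *tt19-8* (-0.74, adjusted p = 0.0269). S7 replicate 3, which was low in the low-oxygen genes, held the lowest level of S7 in *BGLU1*, *BGLU8*, *BGLU9*, *BGLU10* and *BGLU11*. Without it *BGLU11* was called higher than in *tt19-8* (0.35, adjusted p = 0.0199) and *BGLU10* higher than in Col-0 (0.22, adjusted p = 0.0296). *BGLU8* in S4 was called higher than in Col-0 without Col-0 replicate 2 (0.60, adjusted p = 0.0347), *BGLU4* in S5 lower than in Col-0 without S5 replicate 1 (-0.28, adjusted p = 0.0190), and *BGLU4* in S2 higher than in *tt19-8* without S2 replicate 3 (0.26, adjusted p = 0.0217).

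Against Col-0, 5 of 9 genes were called in S1 (1 higher and 4 lower, background 36.4%), 5 in S2 (3 higher and 2 lower, background 27.3%) and 5 in S4 (all higher, background 42.9%). S5 had 4 calls (1 higher and 3 lower, background 25.2%), S7 had 4 (2 in each direction, background 42.7%) and S8 had 2 (both higher, background 29.2%). The 4 of 9 in S7 again stood near the background, and the 2 of 9 in S8 below it. Without Col-0 replicate 1 or 2, or S2 replicate 1 or 2, the count in S2 fell from 5 to 3. Between suppressor lines the counts are of 10 genes, since *BGLU1*, whose rise entered the choice of the group, is included and was called each time. They are therefore not comparable with the counts of 9 genes, and the call of *BGLU1* raises each of them against the background. In S4 against S2, 7 of 10 were called (4 higher and 3 lower, background 28.6%), and in S4 against S8, 6 were (5 higher and 1 lower, background 35.6%). In S1 against S8, 7 were called (1 higher and 6 lower, background 28.0%), although both lines carry nonsense mutations of *RDR6*. In S7 against S5, 8 of 10 were called (5 higher and 3 lower, background 45.2%).

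**Figure D2:**
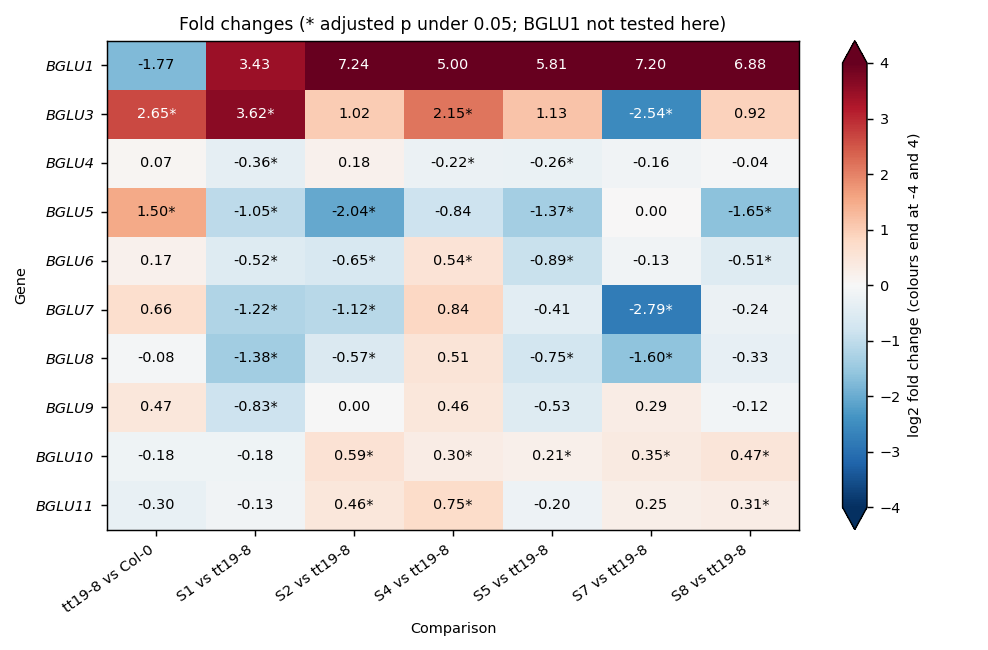
Log2 fold change of the 10 genes in *tt19-8* against Col-0 and in each suppressor line against *tt19-8* (colours from blue, lower, to red, higher; asterisks mark an adjusted p under 0.05). *BGLU1* carries no asterisk because it was not tested in these comparisons; *BGLU10* was called higher in 5 lines, and *BGLU5*, *BGLU6* and *BGLU8* were each called lower in 4.

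*BGLU1* (AT1G45191) was low but above the floor of 3 counts in *tt19-8*, with 43, 39 and 16 counts in the 3 libraries, or 1.18, 0.898 and 0.455 CPM. In Col-0 it stood at 2.50, 2.52 and 3.76 CPM. All 18 libraries of the suppressor lines lay above every library of Col-0 and *tt19-8*. The lowest line was S1, at 8.75, 9.94 and 8.97 CPM, followed by S4 at 26.3, 26.5 and 29.5 CPM. S5 was spread widely, at 60.1, 65.6 and 18.3 CPM, so that its replicate 3 lay below all of S4. *SGS3*, the gene mutated in S5, also stood apart in that library, at 19.2 CPM against 8.90 and 9.80 in the other two, and the part of this in *BGLU1* was not tested.

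The highest levels of *BGLU1* were in S8 (99.7, 112 and 90.1 CPM), S7 (149, 137 and 91.9 CPM) and S2 (159, 154 and 73.2 CPM). These 3 lines overlapped each other, and all of them lay above S5. *tt19-8* and Col-0 did not overlap, nor did Col-0 and S1 or S1 and S4, while S4 and S5 did. Relative to *tt19-8* the level was 10.8-fold in S1, 32.1-fold in S4, 56.2-fold in S5, 118-fold in S8, 147-fold in S7 and 151-fold in S2. Relative to Col-0 the same lines ran from 3.17-fold in S1 to 44.2-fold in S2, and *tt19-8* stood at 0.293-fold. The strong suppressor S1 thus had less *BGLU1* than the weak suppressors S4 and S5.

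Between lines *BGLU1* was tested. The same line values entered the choice of the group, so these p-values are a description and no independent support. S1 was far below S8 (-3.44 ± 0.35 on the log2 scale with its SE, adjusted p = 6.10e-07). S4 was below S2 (-2.23 ± 0.33, adjusted p = 5.19e-05) and below S8 (-1.88 ± 0.33, adjusted p = 0.000169). S7 was above S5 (1.39 ± 0.32, adjusted p = 0.00142). No library left out ended any of these calls, and in each the 3 libraries of one line lay wholly above those of the other. For S7 against S5 the adjusted p had a range of 0.000287 to 0.0244 over its 12 alternatives.

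Across the 24 libraries, the genes whose log2 level was most like that of *BGLU1* were *UNE10* (AT4G00050), a bHLH transcription factor gene, with Pearson r = 0.984, AT3G49270 (r = 0.981) and AT3G25795, the *TAS4* precursor (r = 0.978). They were found among 19194 genes that averaged 1 CPM or more. Within the group *BGLU1* was most like *BGLU10* (r = 0.716). These correlations describe libraries that share genotypes and carry no p.

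**Figure D3:**
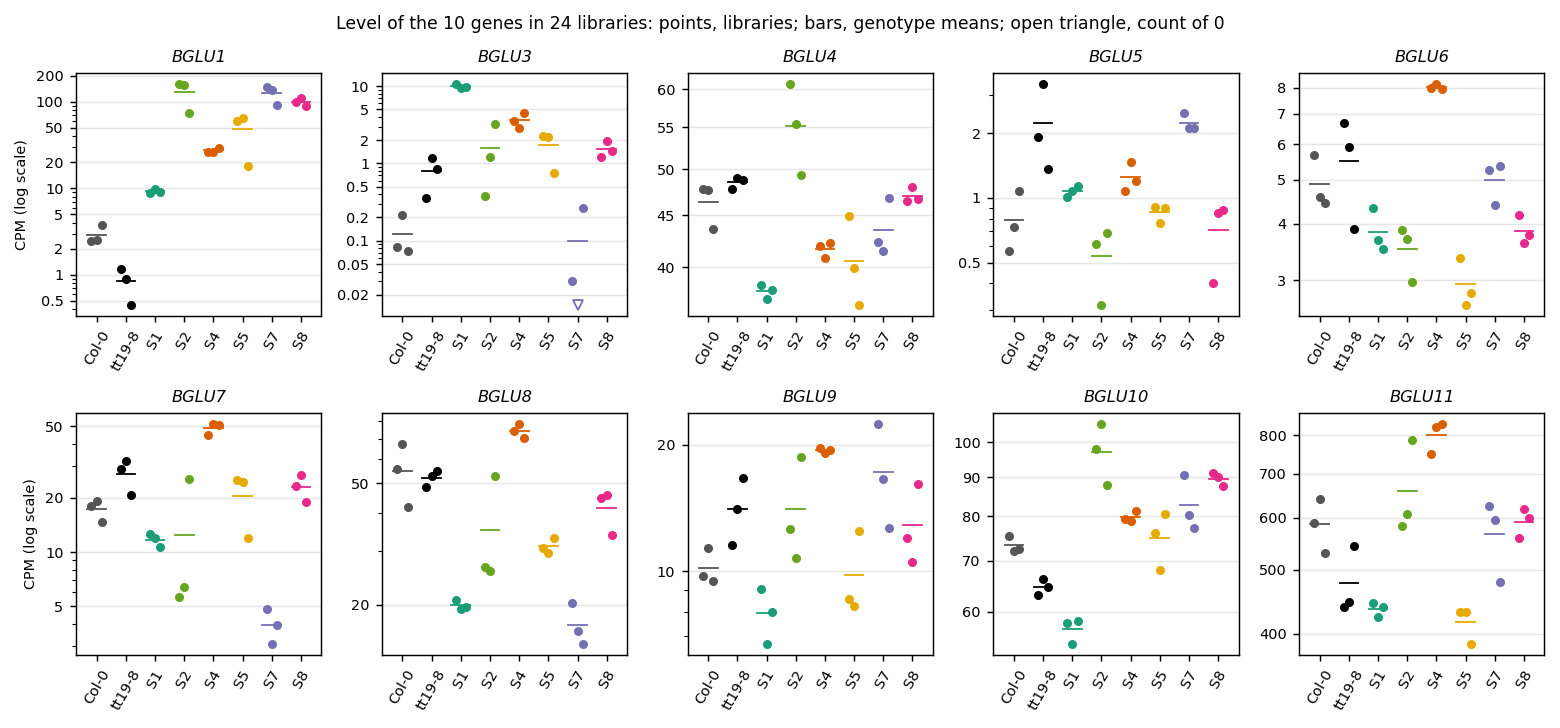
CPM of each of the 10 genes in the 24 libraries (points, log axes that differ between panels) with the mean of each genotype as a bar; the open triangle in the *BGLU3* panel marks a count of 0. *BGLU1* spanned 0.455 to 159 CPM, whereas *BGLU4* spanned only 36.7 to 60.7 CPM.

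*BGLU10* (AT4G27830), the anthocyanin glucosyltransferase, rose in 5 of the 6 lines over *tt19-8*, by smaller factors than *BGLU1*. The *tt19-8* libraries held 63.2, 66.2 and 64.6 CPM, against 98.0, 106 and 87.8 in S2 and 91.0, 90.0 and 87.6 in S8. All libraries of S2 and S8 were above all of Col-0, which stood at 75.4, 72.0 and 72.5 CPM. The rise over *tt19-8* on the log2 scale was 0.59 ± 0.07 in S2 (SE, adjusted p = 1.08e-05) and 0.47 ± 0.07 in S8 (adjusted p = 7.77e-05). S7 (90.6, 80.2 and 77.1 CPM) and S4 (79.3, 78.8 and 81.2 CPM) followed, at 0.35 ± 0.07 (adjusted p = 0.000678) and 0.30 ± 0.07 (adjusted p = 0.00593). In S5 the rise was the smallest called, 0.21 ± 0.07 (adjusted p = 0.0371). It missed the threshold without *tt19-8* replicate 1 (0.0984), 2 (0.0605) or 3 (0.0780) and without S5 replicate 1 (0.109) or 3 (0.146), in a range of 0.0189 to 0.146 over its 12 alternatives.

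S1 stood out by its low level of *BGLU10*, at 57.9, 54.5 and 58.3 CPM, below every library of the other 7 genotypes. Its difference from *tt19-8* missed the threshold (-0.18 ± 0.07, adjusted p = 0.0563). Against Col-0, S1 was lower (-0.36 ± 0.07, adjusted p = 0.000518), whereas S2 (0.41 ± 0.07, adjusted p = 0.000333) and S8 (0.29 ± 0.07, adjusted p = 0.00563) were higher. S1 against S8, the same kind of *RDR6* mutation, gave -0.65 ± 0.07 (adjusted p = 1.53e-06). S4 was below S2 (-0.29 ± 0.07, adjusted p = 0.00571). *tt19-8* against Col-0 gave -0.18 ± 0.07 (adjusted p = 0.102), with no overlap between the libraries. The genes most like *BGLU10* over the 24 libraries were AT1G20490 (r = 0.897), *UGT73C1* (r = 0.887), a glucosyltransferase gene, and *ELIP2* (r = 0.864), which encodes an early light-induced protein.

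*BGLU9* (AT4G27820), the neighbour and closest relative of *BGLU10*, was present at 0.0988 to 0.25 of the level of *BGLU10* per kb and followed it loosely (r = 0.474). Its highest levels were in S4, at 19.7, 19.1 and 19.4 CPM, and S7, at 22.5, 16.5 and 12.6 CPM. Its lowest were in S1, at 9.07, 6.71 and 8.00 CPM, below *tt19-8* at 11.5, 14.0 and 16.6 CPM (-0.83 ± 0.22, adjusted p = 0.00608). That was its sole call against *tt19-8*. Against Col-0 it was higher in S4 (0.93 ± 0.22, adjusted p = 0.00181) and in S7 (0.75 ± 0.22, adjusted p = 0.00867). The call in S7 was lost without S7 replicate 1 (0.0869, in a range of 0.00163 to 0.0869 over 12 alternatives). S7 was also above S5 (0.81 ± 0.22, adjusted p = 0.00491), a call lost without S7 replicate 1 (0.0549, in a range of 0.000855 to 0.0549). *BGLU9* was most like AT4G25290 (r = 0.934), AT3G24640 (r = 0.927) and AT3G05350 (r = 0.922).

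*BGLU6* (AT1G60270), the flavonol glucosyltransferase gene, was highest in S4, at 8.00, 8.14 and 7.93 CPM, above all other 21 libraries. *tt19-8* held 6.69, 5.92 and 3.90 CPM, and its lowest library was replicate 3. S5 was lowest, at 3.36, 2.65 and 2.81 CPM, and fell against *tt19-8* (-0.89 ± 0.18, adjusted p = 0.00100) and Col-0 (-0.73 ± 0.18, adjusted p = 0.00452). S4 was above Col-0 (0.71 ± 0.17, adjusted p = 0.00211), S2 (1.19 ± 0.17, adjusted p = 3.88e-05) and S8 (1.05 ± 0.18, adjusted p = 9.43e-05), and none of these 5 calls was lost under an alternative. Against *tt19-8* the rise in S4 (0.54 ± 0.17, adjusted p = 0.0292) was lost without *tt19-8* replicate 2 (0.0539) or 3 (0.120) and without S4 replicate 1 (0.0714), 2 (0.0813) or 3 (0.0679), in a range of 0.0126 to 0.120 over 12 alternatives.

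The falls of *BGLU6* in the 3 nonsense lines against *tt19-8* were also lost with single libraries. In S1 (-0.52 ± 0.17, adjusted p = 0.0244) the call was lost without *tt19-8* replicate 1 (0.154) or 2 (0.0814) or S1 replicate 2 (0.0761) or 3 (0.0918), in a range of 0.00148 to 0.154 over 12 alternatives. In S2 (-0.65 ± 0.17, adjusted p = 0.0115) it was lost without *tt19-8* replicate 1 (0.0856) or 2 (0.0510) or S2 replicate 3 (0.0519), in a range of 0.000897 to 0.176. In S8 (-0.51 ± 0.18, adjusted p = 0.0375) it was lost without *tt19-8* replicate 1 (0.202) or 2 (0.116) or S8 replicate 1 (0.0505), 2 (0.107) or 3 (0.0973), in a range of 0.00313 to 0.202. S2 against Col-0 (-0.48 ± 0.17, adjusted p = 0.0429) missed the threshold without Col-0 replicate 1 (0.187) or 2 (0.0628) or S2 replicate 2 (0.0613) or 3 (0.175), in a range of 0.0236 to 0.187. *BGLU6* was most like AT5G28330 (r = 0.876), AT3G43690.1 (r = 0.867) and AT1G06590 (r = 0.853).

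*BGLU5* (AT1G60260), which lies next to *BGLU6*, was a gene of low counts, 12 to 147 per library. It was high in *tt19-8*, at 1.93, 3.38 and 1.37 CPM, and in S7, at 2.50, 2.11 and 2.12 CPM, and neither overlapped Col-0, at 0.567, 0.732 and 1.07 CPM. Its rise in *tt19-8* over Col-0 (1.5 ± 0.35, adjusted p = 0.00669) was lost without *tt19-8* replicate 2 (0.0529, in a range of 0.000619 to 0.0545). S7 against Col-0 (1.51 ± 0.35, adjusted p = 0.00142) was not lost under any alternative. S2 held 0.610, 0.319 and 0.690 CPM and S8 0.402, 0.848 and 0.883, below all *tt19-8* libraries. Against *tt19-8*, S2 (-2.04 ± 0.35, adjusted p = 0.000395), S8 (-1.65 ± 0.36, adjusted p = 0.00171), S5 (-1.37 ± 0.35, adjusted p = 0.00654) and S1 (-1.05 ± 0.33, adjusted p = 0.0188) were lower.

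Leaving out a library did not end the calls for S2 or S8 in *BGLU5*, but S2 missed the threshold in a fit of only the 2 genotypes (0.0552, in a range of 9.25e-07 to 0.0552). The call in S5 was lost without *tt19-8* replicate 2 (0.0653, in a range of 0.00130 to 0.0653). That in S1 was lost without *tt19-8* replicate 2 (0.188) or S1 replicate 1 (0.0613) or 2 (0.0527), in a range of 0.00461 to 0.188. Against Col-0, *BGLU5* was not called in S1, S2, S4, S5 or S8, with log2 fold changes between -0.54 and 0.66. In S4, where *BGLU6* was at its highest, *BGLU5* was at 1.08, 1.46 and 1.20 CPM. Per kb, *BGLU5* was at 0.152 to 0.203 of the level of *BGLU6* in S4 and at 0.445 to 0.541 in S7. S7 was above S5 both in *BGLU5* (1.37 ± 0.35, adjusted p = 0.00279) and in *BGLU6* (0.76 ± 0.18, adjusted p = 0.00145). The genes most like *BGLU5* were *CESA6* (r = 0.784), a cellulose synthase gene, AT2G31580 (r = 0.783) and AT5G06670 (r = 0.776).

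*BGLU7* (AT3G62740) and *BGLU8* (AT3G62750) were the neighbours whose levels went together most closely (r = 0.851 over the 24 libraries, which share genotypes). Both were highest in S4 and had their lowest mean in S7. *BGLU7* stood at 44.6, 51.8 and 50.5 CPM in S4 and at 4.81, 3.10 and 3.92 CPM in S7, with *tt19-8* between them at 29.1, 32.0 and 20.9 CPM. *BGLU8* stood at 74.2, 78.3 and 70.3 CPM in S4, at 20.3, 16.5 and 14.9 CPM in S7 and at 48.7, 53.0 and 54.8 CPM in *tt19-8*. For both genes S4, *tt19-8* and S7 did not overlap. Col-0 held 17.9, 19.3 and 14.6 CPM of *BGLU7* and 55.8, 67.2 and 41.9 CPM of *BGLU8*.

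In S7, *BGLU7* was lower than in *tt19-8* (-2.79 ± 0.41, adjusted p = 2.28e-05), Col-0 (-2.13 ± 0.41, adjusted p = 0.000283) and S5 (-2.37 ± 0.41, adjusted p = 8.24e-05). *BGLU8* in S7 was likewise lower than in *tt19-8* (-1.60 ± 0.21, adjusted p = 4.72e-06), Col-0 (-1.68 ± 0.21, adjusted p = 2.04e-06) and S5 (-0.86 ± 0.21, adjusted p = 0.00192). These 6 calls held under every alternative. The 3 leaf genes *RBCS1A*, *LHCB1.3* and *LHCA1* summed to 363, 392 and 294 CPM in S7, above all other 21 libraries, and to 162 to 194 CPM in *tt19-8*, 179 to 202 in Col-0 and 135 to 171 in S5. Most of the sum in S7 was *RBCS1A* (291, 307 and 270 CPM), and the other leaf genes were not above all other libraries. In S7 replicate 3, *LHCB1.3* (22.1 CPM) lay below replicate 3 of S8 (57.7), *tt19-8* (42.1) and S5 (24.7). *LHCA1* in that library (2.00 CPM) lay below S5 replicate 3 (2.93). None of the 3 leaf genes was at 0 in any library, and their part in the levels of this pair was not tested. In S1, *BGLU8* was at 20.8, 19.4 and 19.8 CPM, lower than in *tt19-8* (-1.38 ± 0.20, adjusted p = 2.92e-05) and Col-0 (-1.46 ± 0.20, adjusted p = 1.10e-05). *BGLU7* in S1, at 12.6, 11.9 and 10.7 CPM, was lower than in *tt19-8* (-1.22 ± 0.38, adjusted p = 0.0157), a call lost without *tt19-8* replicate 2 (0.0542) or S1 replicate 3 (0.0556), in a range of 2.99e-05 to 0.0556. In S5, *BGLU8* at 30.6, 29.5 and 33.0 CPM was lower than in *tt19-8* (-0.75 ± 0.20, adjusted p = 0.00990) and Col-0 (-0.82 ± 0.20, adjusted p = 0.00469).

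The libraries of S2 disagreed in this pair. *BGLU7* was at 5.61 and 6.36 CPM in replicates 1 and 2 and at 25.5 in replicate 3, and *BGLU8* at 26.5, 25.9 and 52.8. The low-oxygen sum of replicate 3 was given above as the highest of S2, and its 4 seed storage genes summed to 4932 CPM against 1235 and 1279 in the others. Their part in the levels of this pair was not tested. With all 3 libraries S2 was called lower than *tt19-8* in *BGLU7* (-1.12 ± 0.37, adjusted p = 0.0403) and *BGLU8* (-0.57 ± 0.20, adjusted p = 0.0499). Without S2 replicate 3 the fall of *BGLU7* was larger (-2.19, adjusted p = 4.74e-06). With replicate number as a block, which paired the S2 and *tt19-8* libraries, both missed the threshold (adjusted p = 0.0609 and 0.0672).

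The call of *BGLU7* in S2 over *tt19-8* was also lost without S2 replicate 1 (0.160) or 2 (0.165) or *tt19-8* replicate 1 (0.0983) or 2 (0.129), in a range of 1.02e-06 to 0.296. That of *BGLU8* was lost without S2 replicate 1 (0.203) or 2 (0.215) or *tt19-8* replicate 1 (0.0755), 2 (0.114) or 3 (0.0993), in a range of 0.000126 to 0.282. Against Col-0, *BGLU7* in S2 was not called (-0.46 ± 0.37, adjusted p = 0.391), but was without S2 replicate 3 (0.000190, in a range of 4.99e-05 to 0.851). *BGLU8* in S2 was lower than in Col-0 (-0.65 ± 0.20, adjusted p = 0.0201), which was lost without Col-0 replicate 1 (0.0521) or 2 (0.124) or S2 replicate 1 (0.0983) or 2 (0.105), in a range of 9.09e-06 to 0.177.

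With edgeR, S4 over *tt19-8* was called for neither *BGLU7* (0.84 ± 0.37, adjusted p = 0.113, in a range of 0.00583 to 0.238 over its alternatives) nor *BGLU8* (0.51 ± 0.20, adjusted p = 0.0769, in a range of 0.00152 to 0.212), although no libraries overlapped. DESeq2, the tool of the study, called *BGLU8* (adjusted p = 0.0468). Both genes were called without replicate 3 of *tt19-8*, S2 and S8, as given with the counts. Against Col-0, *BGLU7* was higher in S4 (1.5 ± 0.37, adjusted p = 0.00283). Against S2, S4 was higher in *BGLU7* (1.96 ± 0.38, adjusted p = 0.000650) and *BGLU8* (1.08 ± 0.20, adjusted p = 0.000449), and against S8 in *BGLU8* (0.84 ± 0.20, adjusted p = 0.00257). Without S2 replicate 3 the difference from S2 was 3.03, adjusted p = 3.36e-08 in *BGLU7* and 1.5, adjusted p = 3.36e-07 in *BGLU8*. S1 was below S8 in *BGLU8* (-1.05 ± 0.20, adjusted p = 0.000572). The level of *BGLU7* was most like that of *PUM21* (r = 0.935), AT3G46690 (r = 0.932) and *PHO1* (r = 0.912), a phosphate exporter gene. *BGLU8* was most like *SULTR3;1* (r = 0.949), a sulfate transporter gene, *HA7* (r = 0.947), a proton pump gene, and *SERK1* (r = 0.942), a receptor kinase gene.

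**Figure D4:**
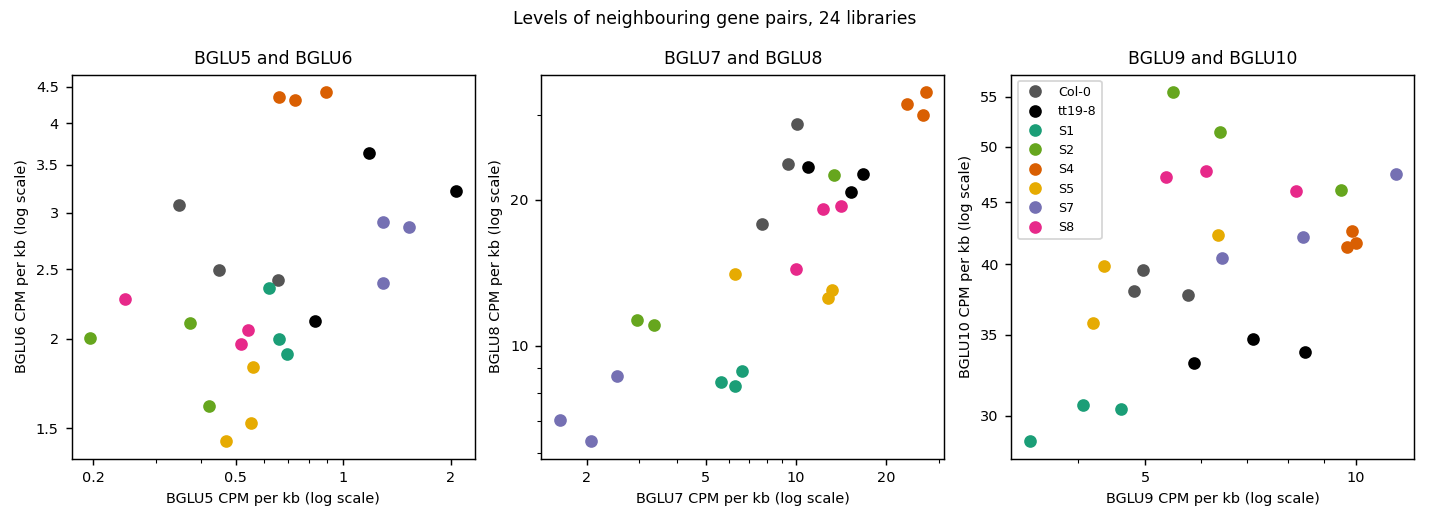
Levels of the 3 pairs of neighbouring genes in CPM per kb of exon (log axes), 1 point per library, coloured by genotype. *BGLU7* and *BGLU8* rose and fell together (r = 0.851), while *BGLU5* and *BGLU6* (r = 0.445) and *BGLU9* and *BGLU10* (r = 0.474) did so less closely.

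*BGLU3* (AT4G22100), with *BGLU5* the closest to *BGLU1* in protein identity, had a different pattern from *BGLU1* (r = 0.00294 over the 24 libraries). *BGLU3* was near the floor in Col-0, with 4, 10 and 3 counts, and in S7, with 1, 0 and 18 counts. There the count of 0 allows a level of up to 0.106 CPM. *tt19-8* held 0.358, 1.17 and 0.854 CPM. S1 held by far the most, 10.6, 9.42 and 9.69 CPM, and S4 followed with 3.50, 2.86 and 4.44 CPM. S2, S5 and S8 lay between 0.376 and 3.24 CPM. S1 overlapped no other genotype, and S4 overlapped S2, whose replicate 3 was at 3.24 CPM.

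*BGLU3* rose over *tt19-8* in S1 (3.62 ± 0.59, adjusted p = 8.49e-05) and S4 (2.15 ± 0.58, adjusted p = 0.0123), and the call in S4 was lost without *tt19-8* replicate 1 (0.0726, in a range of 0.00417 to 0.0726). S7 was lower than *tt19-8* (-2.54 ± 0.78, adjusted p = 0.0141), a call lost without *tt19-8* replicate 2 (0.0728) or S7 replicate 1 (0.0557) or 2 (0.0509), in a range of 0.00264 to 0.0728. Most of the S7 counts were in replicate 3, and without it the value was -5.40, adjusted p = 0.00397, a fitted value that rests on 1 and 0 counts and is no bound. *tt19-8* was above Col-0 (2.65 ± 0.79, adjusted p = 0.0282, and 3.30, adjusted p = 0.0465 without Col-0 replicate 2), a call lost without Col-0 replicate 1 (0.105) or 3 (0.0903) or *tt19-8* replicate 2 (0.106) or 3 (0.0709), in a range of 0.00812 to 0.106. S1, S2, S4, S5 and S8 were all higher than Col-0, by 3.57 to 6.27 on the log2 scale, with adjusted p between 1.09e-06 and 0.00160. Without Col-0 replicate 2 these values were 4.22 to 6.92, and without S2 replicate 3 that of S2 was 2.64, adjusted p = 0.0107 against 3.67 ± 0.74 with all libraries. S7 was not called against Col-0 (0.11 ± 0.98, adjusted p = 0.940). S1 was above S8 (2.70 ± 0.56, adjusted p = 0.00113), and S7 was below S5 (-3.67 ± 0.74, adjusted p = 0.000390, and -6.52, adjusted p = 0.000241 without S7 replicate 3).

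Genes of the dry seed went with *BGLU3* over the 24 libraries, but not within every genotype. The genes most like it over the 24 libraries were *SESA5* (r = 0.967), a seed storage albumin gene, *HSD5* (r = 0.966), a hydroxysteroid dehydrogenase gene, and AT3G01570 (r = 0.962), an oleosin gene. The 4 seed storage genes *CRA1*, *CRU3*, *SESA1* and *SESA3* had counts in all 24 libraries, and none was at 0. Their summed CPM was 46.1 to 122 in Col-0, 966 to 1084 in *tt19-8*, 3956 to 4249 in S1 and 1714 to 1843 in S4. It was 1235 to 4932 in S2, 800.2 to 1716 in S5, 433 to 822 in S7 and 1015 to 1526 in S8. Within S5, replicate 3 was lowest in both *BGLU3* (0.759 CPM) and the seed sum, and within S2 and S7 it was highest in both. In *tt19-8*, replicate 1 had the highest seed sum and the least *BGLU3* (0.358 CPM). In Col-0 the same held for replicate 3 (0.0732 CPM). In S8, replicate 2 had the lowest seed sum and the most *BGLU3* (1.93 CPM). In S1 and S4 the orders agreed only in part. In whole seedlings fewer cells of a type and less RNA per cell cannot be told apart, and the part of the seed genes in the level of *BGLU3* was not tested.

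**Figure D5:**
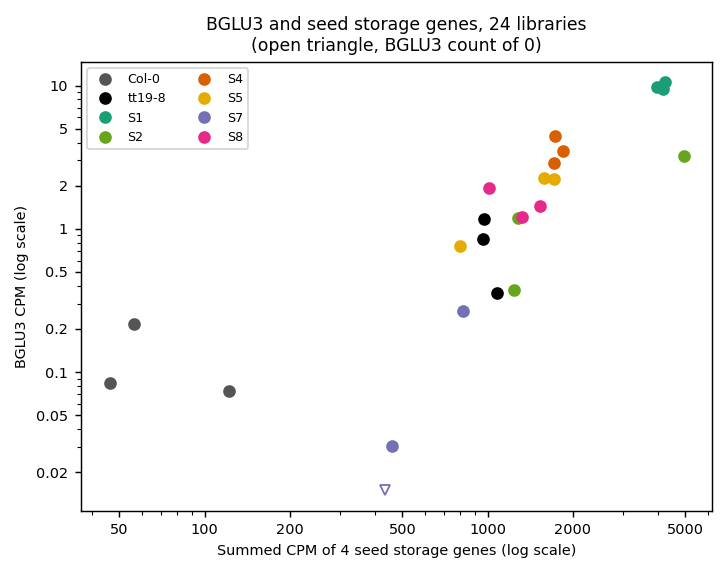
*BGLU3* CPM against the summed CPM of 4 seed storage genes in the 24 libraries (log axes, 1 point per library, coloured by genotype; the open triangle marks the S7 library with no *BGLU3* counts). Col-0 and S7 lay at the lower end of both axes, and S1, at 3956 to 4249 CPM of the seed genes, held the most *BGLU3*. The highest seed sum, 4932 CPM in S2 replicate 3, went with 3.24 CPM of *BGLU3*. S7 lay above Col-0 in the seed sum but not in mean *BGLU3* (0.0996 against 0.124 CPM).

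*BGLU11* (AT1G02850), the most abundant gene of the group, was highest in S4, at 748, 825 and 833 CPM, and lowest in S5, at 432, 432 and 386 CPM. *tt19-8* held 440.1, 447 and 544 CPM, with its highest value in replicate 3, the library high in low-oxygen genes. Col-0 held 531 to 640.1 CPM, S7 479 to 624 and S8 558 to 618. S4 was above *tt19-8* (0.75 ± 0.11, adjusted p = 9.45e-05), Col-0 (0.45 ± 0.11, adjusted p = 0.00302) and S8 (0.44 ± 0.11, adjusted p = 0.00459), and S2 was above *tt19-8* (0.46 ± 0.11, adjusted p = 0.00615). S1 (-0.43 ± 0.11, adjusted p = 0.00510) and S5 (-0.49 ± 0.11, adjusted p = 0.00278) were below Col-0. None of these 6 calls was lost by leaving out a library. S2 over *tt19-8* missed the threshold in a fit of only the 2 genotypes (0.121, in a range of 0.000847 to 0.121). S2 held 582, 607 and 786 CPM, the most in replicate 3, and without that library the rise was 0.32 (adjusted p = 0.0412). The low-oxygen sum was 3585 in that library and 5198 to 5549 in the S4 libraries. The part of the low-oxygen genes in the level of *BGLU11* was not tested.

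S8 was above *tt19-8* in *BGLU11* (0.31 ± 0.11, adjusted p = 0.0472). With replicate number as a block, which paired the S8 and *tt19-8* libraries, it missed the threshold (adjusted p = 0.0590). It also did without *tt19-8* replicate 1 (0.165) or 2 (0.162) and without S8 replicate 1 (0.0533), 2 (0.128) or 3 (0.105), in a range of 0.00627 to 0.165 over 12 alternatives. *tt19-8* against Col-0 was not called (-0.30 ± 0.11, adjusted p = 0.0810), but was lower without *tt19-8* replicate 3 (0.0409, in a range of 0.00826 to 0.264). S1 was below S8 (-0.44 ± 0.11, adjusted p = 0.00566) and S7 above S5 (0.44 ± 0.11, adjusted p = 0.00304). The genes most like *BGLU11* were AT5G58330 (r = 0.922), AT2G36970 (r = 0.910) and AT1G63420 (r = 0.892).

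*BGLU4* (AT1G60090) was the steadiest of the group, between 36.7 and 60.7 CPM in all 24 libraries. Col-0 held 47.8, 47.7 and 43.6 CPM, *tt19-8* 47.8, 49.0 and 48.8 CPM and S1 38.4, 37.2 and 38.0 CPM. S1 was lower than *tt19-8* (-0.36 ± 0.08, adjusted p = 0.00102), than Col-0 (-0.29 ± 0.08, adjusted p = 0.00467) and than S8 (-0.31 ± 0.08, adjusted p = 0.00386). S2, at 60.7, 55.4 and 49.3 CPM, was the highest, and S4 was below it (-0.40 ± 0.08, adjusted p = 0.000512). No alternative removed these 4 calls. S4 was below *tt19-8* with all libraries (-0.22 ± 0.08, adjusted p = 0.0472) and missed the threshold without any single one of the 6, *tt19-8* replicates 1 (0.0934), 2 (0.123) and 3 (0.0713) and S4 replicates 1 (0.101), 2 (0.137) and 3 (0.0955), in a range of 0.0354 to 0.137. S5 was below *tt19-8* (-0.26 ± 0.08, adjusted p = 0.0170), which was lost without S5 replicate 2 (0.0611) or 3 (0.0832), in a range of 0.00623 to 0.0888. S2 was above Col-0 (0.25 ± 0.08, adjusted p = 0.0182), which was lost without Col-0 replicate 3 (0.0816) or S2 replicate 1 (0.104), in a range of 0.00439 to 0.104. Most like *BGLU4* were *GRF3* (r = 0.850), which encodes a 14-3-3 protein, AT1G07280 (r = 0.791) and *PFA-DSP2* (r = 0.789).

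Other genes of the same biology were counted from lists. Among the other GH1 genes, 29 of 37 were tested. Against *tt19-8*, 14 fell and 2 rose in S4 and 13 fell and 4 rose in S7, whereas 12 rose and 2 fell in S1. The share of all genes called in either direction was 18.7% in S4, 37.3% in S7 and 34.0% in S1. In S4 the median log2 fold change of these 29 genes was -0.56, against 0.51 for the 9 members tested and -0.01 for all genes. In S1 the values were 0.40, -0.52 and 0.00 in the same order. The difference between the lists was not tested. The highest mean change over the 6 lines was that of *BGLU33* (4.0 on the log2 scale, called in 4 lines) and the lowest that of *BGLU18* (-1.34, from -4.69 to 0.01, called in 3 lines), an enzyme that frees abscisic acid from its glucose ester.

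The 4 UGT84A genes, which make the acyl-glucoses, were all called higher than *tt19-8* in S2, and 3 of 4 were in S4, S7 and S8. In S5 none was called, and in S1 none was higher and 2 were lower. Of all genes, 19.1% were called in either direction in S2, 18.7% in S4, 37.3% in S7 and 25.6% in S8. That share was 24.7% in S5 and 34.0% in S1. *UGT84A1* had the highest mean log2 fold change over the 6 lines (0.73) and *UGT84A4* the lowest (0.21). S1, the line with the lowest *BGLU10*, was also the line in which 2 of the 4 UGT84A genes fell, and a link between them was not tested. All 6 anthocyanin decoration genes rose over *tt19-8* in each of the 6 lines, with a median log2 fold change from 0.81 in S4 to 2.48 in S8. The study listed these 6 genes as raised in S2, S4, S5, S7 and S8 from the same libraries. Their rise in those lines was thus known in advance and is no support. The highest and lowest mean changes of the 6 genes over the 6 lines were those of *3AT2* (AT1G03495, 2.05) and *5MAT* (1.63), both acyltransferase genes. In *tt19-8*, 5 of these 6 genes were lower than in Col-0, where 13.6% of all genes were called in either direction. In S1 the median rise of the 6 was 0.88, beside -0.18 for *BGLU10* in the same line. Of 6 flavonol genes tested, 1 to 4 rose over *tt19-8* in each line and none fell. *UGT78D2* rose in all 6 lines (mean 1.62), and in S5 and S8 it was the only gene of this list called. The study places *UGT78D2* among the genes that modify anthocyanin. *UGT73C6* was called in none of the lines (mean -0.80). *UGT78D2* too was listed by the study as raised in S2, S4, S5, S7 and S8, so its rise there was known in advance.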

How the data were processed

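Per the labels and the study's methods, reads from both fragment ends were checked in FastQC 0.11.5, Hisat2 placed them on TAIR10, and FeatureCounts gave the raw counts per gene that the authors deposited. How strand, multiply mapped reads and overlapping genes were treated is not given in the sources used here, so the 104 bases that *BGLU9* shares with AT4G07905 are uncertain. Counts were fitted as deposited in all 24 libraries with edgeR 4.0.16 in R 4.3.3 (TMM scaling, filterByExpr by genotype with a minimum count of 10, quasi-likelihood F test, two-sided, Benjamini-Hochberg adjustment over the 22089 genes of each of 18 comparisons). A call needed an adjusted p under 0.05 and no minimum fold change, the criterion of the study, which used DESeq2. Values are CPM, and log2 fold changes carry their standard error (SE). The biological coefficient of variation was 14.2%. Exon lengths, identities and upstream windows came from the RefSeq annotation of TAIR10.1, which matched 28932 identifiers.

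The members and the gene lists were chosen with earlier results of these data known. The text names the 10 members, for each the 3 most correlated genes (log2 of CPM + 0.5), and from each list the genes with the highest and lowest mean change over the 6 lines. Same-numbered libraries deviated together in S2 and *tt19-8* (r = 0.21, 0.21 and 0.33) and in S8 and *tt19-8* (0.18, 0.20 and 0.45), from the data alone, so the blocked fit is given beside results it changed there. Alternatives were relative log expression scaling, DESeq2 1.42.0, no filter, fits of only the 2 genotypes compared, the block, each library left out, 3 libraries left out together, and an adjusted p under 0.01. The scripts were tested on simulated counts.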

Additional observations from a re-analysis of the deposited data

Results flagged for a closer look

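Lines with the same parent were compared directly. *BGLU1*, whose rise in the lines entered the choice of the group, is listed with the others, and its calls are no independent support. With it, 28 differences between lines were past the threshold (edgeR, log2 fold change, 3 libraries a line). In S4 against S2 they were *BGLU1* (-2.23), *BGLU4* (-0.40), *BGLU5* (1.21), *BGLU6* (1.19), *BGLU7* (1.96), *BGLU8* (1.08) and *BGLU10* (-0.29). In S4 against S8 they were *BGLU1* (-1.88), *BGLU6* (1.05), *BGLU7* (1.08), *BGLU8* (0.84), *BGLU9* (0.59) and *BGLU11* (0.44). In S1 against S8, where both mutations of *RDR6* are nonsense, they were *BGLU1* (-3.44), *BGLU3* (2.70), *BGLU4* (-0.31), *BGLU8* (-1.05), *BGLU9* (-0.70), *BGLU10* (-0.65) and *BGLU11* (-0.44). In S7 against S5 they were *BGLU1* (1.39), *BGLU3* (-3.67), *BGLU5* (1.37), *BGLU6* (0.76), *BGLU7* (-2.37), *BGLU8* (-0.86), *BGLU9* (0.81) and *BGLU11* (0.44).

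Of these, 5 calls were lost when a library was left out. *BGLU5* in S4 against S2 (adjusted p = 0.0140) missed the threshold without S2 replicate 2 (0.0808) or S4 replicate 2 (0.0609), in a range of 0.00500 to 0.0808 over 12 alternatives. *BGLU7* in S4 against S8 (adjusted p = 0.0271) missed it without S4 replicate 2 (0.0681) or 3 (0.0621) or S8 replicate 1 (0.0659) or 3 (0.0943), in a range of 3.34e-05 to 0.0943. *BGLU9* in S4 against S8 (adjusted p = 0.0408) missed it without S4 replicate 1 (0.0862), 2 (0.0778) or 3 (0.0815) or S8 replicate 1 (0.116) or 2 (0.162), in a range of 0.00439 to 0.162. *BGLU9* in S1 against S8 (adjusted p = 0.0215) missed it without S1 replicate 2 (0.0974) or 3 (0.0559) or S8 replicate 3 (0.141), in a range of 0.00632 to 0.141. *BGLU9* in S7 against S5 missed it without S7 replicate 1 (0.0549, in a range of 0.000855 to 0.0549).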

How the results depend on the processing

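Of the alternative values of tested fold changes, 1679 kept their direction and their side of the threshold, 114 lost a call, 48 gained one and 42 changed sign, and every sign change was of a value not called. Of 9 members tested, 0 to 2 were called in *tt19-8* against Col-0 as each library was left out. Against *tt19-8*, S1 had 4 to 7, S2 3 to 6, S4 and S5 3 to 4 each and S8 2 to 4, and S2 against Col-0 had 3 to 5. At an adjusted p under 0.01 *tt19-8* against Col-0 had 1 call and S2 against Col-0 had 2, while against *tt19-8* S1 had 4, S2 and S5 had 3 each and S4 and S8 had 2 each. Without the 3 libraries left out together (replicate 3 of *tt19-8*, S2 and S8) they were 4 in *tt19-8* against Col-0 and 8 in S4 against *tt19-8*. Fits of only the 2 genotypes gave 1 in S2, 3 in S5 and 2 in S8 against *tt19-8*, 2 in S2 and 8 in S4 against Col-0. The causes of these changes were not tested.

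With replicate number as a block, 4 members were called in S2 and 3 in S8 against *tt19-8*, and the count changed in no other comparison. Outside S2 and S8 against *tt19-8* the numbers did not pair the libraries (mean r from -0.27 in S7 against *tt19-8* to 0.055 in S7 against Col-0).

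Sign changes of log2 fold changes not called were as follows, with the range over libraries left out. Against *tt19-8*, *BGLU9* in S2 was 0.00281 with no filter and 0.0149 with only the 2 genotypes (-0.27 to 0.16). *BGLU5* in S7 was -0.00452 with relative log expression scaling, -0.00578 with DESeq2, -0.0154 with no filter, -0.25 without the 3 libraries and -0.000703 with only the 2 genotypes (-0.25 to 0.44). Ranges were -0.00876 to 1.47 for *BGLU3* in S2, -0.33 to 0.0296 for *BGLU6* in S7 and -0.32 to 0.0134 for *BGLU9* in S8. Against Col-0, *BGLU8* in *tt19-8* ran from -0.24 to 0.0943, *BGLU5* in S5 from -0.0582 to 0.41, *BGLU9* in S5 from -0.27 to 0.0400 and *BGLU10* in S5 from -0.0229 to 0.0947. *BGLU3* in S7 was -0.11 with DESeq2 (-2.75 to 0.76, lowest without S7 replicate 3). *BGLU6* in S7 ran from -0.0298 to 0.15, *BGLU11* in S7 from -0.14 to 0.0538, *BGLU4* in S8 from -0.0196 to 0.0444, *BGLU5* in S8 from -0.35 to 0.14 and *BGLU11* in S8 from -0.0554 to 0.0778. *BGLU6* in S1 against S8 was 0.00685 with no filter (-0.10 to 0.0561).

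Depth limited *BGLU3* in Col-0 and S7, where libraries held 0 to 18 counts, and *BGLU5*, which had at most 147 counts in a library.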

Other observations

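*BGLU2* (AT5G16580), the number missing from the group, had 0 counts in all 24 libraries, which allows a level of up to 0.0414 to 0.116 CPM per library. It was looked up after the values of the others were seen.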
